A study of Mus musculus with 6 samples.

Results

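The growth factors by which fat tissue makes and maintains its blood vessels were followed here in the inguinal white adipose tissue, a subcutaneous fat depot, of cold-exposed mice. The set holds 9 ligand genes, namely Vegfa, Vegfb, Vegfc, Pgf, Angpt1, Angpt2, Angptl2, Fgf1 and Fgf2, and Hif1a, which encodes no ligand but the oxygen-regulated transcription factor that switches on several of them. These 10 genes were chosen by name, with earlier results of these data known. All 10 of them were among the 16627 genes of the deposited table and passed the filter on low counts applied here. RNA was sequenced from 3 Celf1 AKO libraries, from mice in which Celf1 had been deleted in adipocytes, and from 3 Flox control libraries, from floxed littermates. Both groups had spent 6 hours at 4 °C, and no group kept warm was analysed here, so the comparison is between genotypes in the cold and does not measure the effect of cold. The promoter that drives the deletion, and the age and sex of the mice, are not stated in any source used here. Nothing in the labels says that each library came from its own mouse, and the p-values measure only the spread between these libraries.

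VEGF-A, the product of Vegfa, drives endothelial growth and permeability through the receptors encoded by Kdr and Flt1. Of the receptors encoded by Kdr, Flt1 and Flt4, VEGF-B and placental growth factor, the product of Pgf, bind that of Flt1 alone. VEGF-C acts mainly on lymphatic vessels through the Flt4 receptor. Angiopoietin 1 activates the endothelial receptor encoded by Tek, which angiopoietin 2 can block or activate depending on context, and the acidic and basic fibroblast growth factors, FGF1 and FGF2, act on the Fgfr receptors. Thermogenic fat is densely vascularized, adipocytes are a main source of VEGF-A in it, and cold is known to raise Vegfa in brown and subcutaneous fat of mice.

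The libraries held 54835348 to 64979443 counts each, so that a gene at 1 CPM (counts scaled to library size with edgeR's TMM factors) rested on 54.9 to 67.8 counts per library. The targeted gene, Celf1, which encodes an RNA-binding protein that regulates splicing and decay of mRNAs, averaged 55.1 ± 6.97 CPM in Celf1 AKO fat, against 128 ± 15.3 CPM in Flox control fat (n = 3 libraries each, SD). Its edgeR log2 fold change was -1.21 (SE 0.14). With all 6 libraries edgeR did not call even this gene (adjusted p = 0.122), while DESeq2 did (adjusted p = 2.05e-09). Summed over 8 adipocyte markers, including Adipoq and Plin1, the level was 42489 to 51605 CPM in Celf1 AKO fat, against 46822 to 50679 CPM in Flox control fat. Celf1 AKO replicate 3 stood apart from its group: the chi-square of its counts per degree of freedom was 261 and 336 against the other Celf1 AKO libraries and 139 to 186 against the 3 controls. Celf1 AKO replicates 1 and 2 stood at 91.8 from each other. Against the 3 controls they stood at 133 to 217 and 140 to 302, so they were no nearer to the controls as a group. Celf1 AKO replicate 3 also held Acta1, the skeletal muscle actin gene, at 1039 CPM, where Celf1 AKO replicates 1 and 2 held 23.1 and 70.6 CPM and the Flox control libraries 33.5 to 75.2 CPM. The other skeletal muscle markers listed, Ckm, Myh4, Tnnt3 and Mylpf, were not among the genes measured, so Acta1 alone could be checked. Results for the growth factors are therefore given with and without it. In bulk tissue, fewer cells of a type and less RNA per cell cannot be told apart.

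The start regions of Vegfa, Pgf and Hif1a are printed as examples that hold none, 1 and 2 matches to the letters that hypoxia factors can bind, and to show where letters bound by the general activator Sp1 stand. Each is the stretch of 250 bases before a RefSeq start (GRCm38.p6), 5′ to 3′ on the gene's strand, and capitals mark ACGTG or GCGTG, the hypoxia letters, and the Sp1 core GGGCGG on either strand. The Vegfa region is chr17:46032378-46032627 (minus strand), that of Pgf chr12:85177314-85177563 (minus strand) and that of Hif1a chr12:73907617-73907866 (plus strand).
Vegfa: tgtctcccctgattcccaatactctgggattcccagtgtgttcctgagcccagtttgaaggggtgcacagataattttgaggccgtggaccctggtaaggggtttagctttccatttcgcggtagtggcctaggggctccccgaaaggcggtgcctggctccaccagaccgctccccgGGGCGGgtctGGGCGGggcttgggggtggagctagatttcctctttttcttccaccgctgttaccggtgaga
Pgf: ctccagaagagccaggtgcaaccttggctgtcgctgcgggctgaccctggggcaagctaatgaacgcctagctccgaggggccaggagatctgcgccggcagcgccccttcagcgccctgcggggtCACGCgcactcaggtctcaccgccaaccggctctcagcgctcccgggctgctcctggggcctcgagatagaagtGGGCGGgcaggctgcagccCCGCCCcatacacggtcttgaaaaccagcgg
Hif1a: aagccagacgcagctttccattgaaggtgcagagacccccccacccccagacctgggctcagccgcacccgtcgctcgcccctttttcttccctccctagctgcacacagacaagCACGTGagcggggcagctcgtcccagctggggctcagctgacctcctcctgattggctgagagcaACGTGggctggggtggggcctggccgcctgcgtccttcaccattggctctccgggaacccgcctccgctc

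The hypoxia letters stood at 0 places in this Vegfa region, at 1 place in that of Pgf and at 2 places in that of Hif1a, the first of which reads alike on both strands. Among 32851 start regions of the same length in the table, 38.6% held ACGTG or GCGTG. The core of the Sp1 site, GGGCGG, stood at 2 places each for Vegfa and Pgf and at 0 places for Hif1a, and was found in 32.7% of all regions. A second RefSeq start of Vegfa, chr17:46025164-46025413, held GCGTG at position -218 and ACGTG at position -211 from the start. That stretch lies inside the annotated gene (46016993 to 46032369, minus strand), so its letters do not stand upstream of the whole gene. A second start of Pgf, chr12:85175983-85176232, held none of the 3. It and the printed stretches of Pgf and Hif1a also lie inside the annotated spans of their genes. The best known hypoxia element of the human VEGFA gene lies further upstream than this window, and a match of letters is a description, not a site. Regions were also found for Vegfb, Vegfc, Angptl2 and Fgf2, but not for Angpt1, Angpt2 or Fgf1.

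Of the 10 members, 0 were called over the whole table by edgeR's quasi-likelihood test (Benjamini-Hochberg adjusted p under 0.05), which called 0.0122% of the 16366 genes tested. Log2 fold changes of Celf1 AKO over Flox control were above 0 for 9 of 10 members, with a median of 0.48, against 47.5% of all tested genes, whose median was -0.02. At an unadjusted edgeR p under 0.05, 4 members were higher in Celf1 AKO (Vegfa, Pgf, Angpt2 and Fgf1) and 0 lower, where 6.75% of all genes were higher and 6.17% lower. In 4 members, Pgf, Angpt2, Fgf1 and Hif1a, all 3 Celf1 AKO libraries lay above all 3 controls, which held for 7.81% of all genes, and in 0 members did they all lie below, against 9.51% of all genes. Because the members were chosen with earlier results of these data known, these shares describe the set and do not test it. DESeq2 called 2 members higher, Vegfa and Fgf1, with 3.16% of genes called (2.17% higher and 0.985% lower). Without Celf1 AKO replicate 3, edgeR called 1 member, Vegfa, with 3.19% of genes called (1.43% higher and 1.76% lower).

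**Figure D1:**
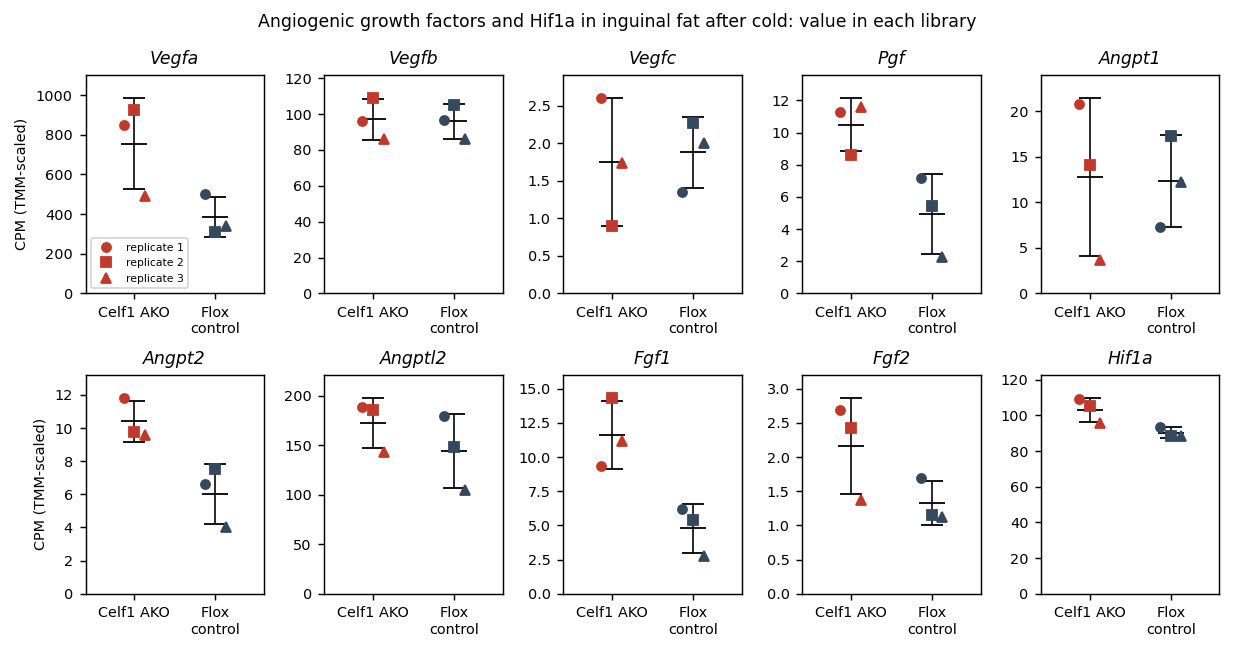
TMM-scaled CPM (y axis, from 0, 1 scale per gene) of the 10 genes in each Celf1 AKO library (left, red) and each Flox control library (right, dark blue), with the mean and SD of 3 libraries in black and the marker shape giving the replicate number. For Pgf, Angpt2, Fgf1 and Hif1a the lowest Celf1 AKO library lies above the highest control, and for Vegfa the 493 CPM of Celf1 AKO replicate 3 lies beside the 502 CPM of Flox control replicate 1.

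Vegfa (ENSMUSG00000023951; GRCm38 chromosome 17, 46016993 to 46032369, minus strand) had the highest level of the set in FPKM (fragments per kilobase of transcript, scaled to depth, as the authors gave it). It stood at 851, 923 and 493 CPM in replicates 1, 2 and 3 of Celf1 AKO, against 502, 312 and 340 CPM in Flox control replicates 1, 2 and 3. Celf1 AKO replicates 1 and 2 were well above all others, while replicate 3 lay just below Flox control replicate 1, so that the groups overlapped. The mean was 756 ± 230 CPM in Celf1 AKO fat, against 385 ± 103 CPM in Flox control fat (n = 3 libraries each, SD), or a log2 fold change of 0.97 (SE 0.28, 1.96-fold), which missed the threshold (edgeR adjusted p = 0.286). The overlap depends on the scaling: in FPKM, Vegfa stood at 247, 252 and 148 in the Celf1 AKO libraries, against 136, 94.2 and 102 in the Flox control libraries, without overlap. Without Celf1 AKO replicate 3 the log2 fold change was 1.20 and the edgeR adjusted p 0.0385, and DESeq2 on all 6 libraries gave an adjusted p of 0.0317. Leaving out the other libraries in turn, the edgeR adjusted p reached 0.792.

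Immediate early genes, which respond within minutes to stimulation, stress or handling of tissue, followed a similar order of libraries. The mean log2(CPM + 0.5) of 9 of them, Jun, Ier2 and Atf3 among them, stood 2.20, 2.22 and 0.12 above the control mean in the 3 Celf1 AKO libraries by number, against 0.59, -0.26 and -0.34 in Flox control replicates 1, 2 and 3. On the same scale Vegfa stood 1.18, 1.29 and 0.39 above the control mean in the Celf1 AKO libraries and at 0.42, -0.27 and -0.15 in the Flox control libraries. In both, Celf1 AKO replicates 1 and 2 were highest and Flox control replicate 1 lay above Celf1 AKO replicate 3, while the order of Flox control replicates 2 and 3 differed. All 9 immediate early genes had positive log2 fold changes (median 1.75), 0 were called by edgeR, and 8 were called without Celf1 AKO replicate 3. Without that library edgeR called 3.19% of all genes, 1.43% higher and 1.76% lower. The part of the immediate early genes, or of what moved them, in the Vegfa difference was not tested.

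**Figure D2:**
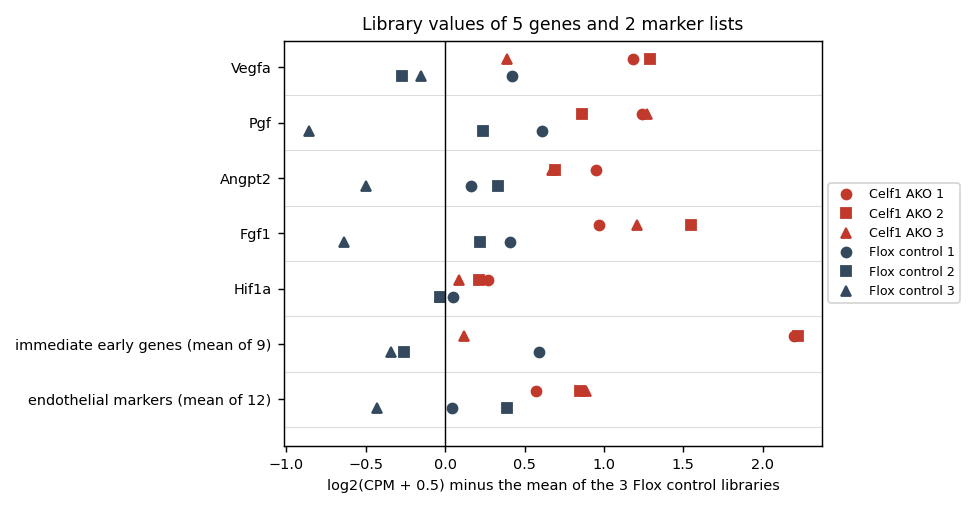
Log2(CPM + 0.5) of 5 genes and the mean of 2 marker lists in each library, relative to the mean of the 3 Flox control libraries (x axis), with Celf1 AKO libraries (red) above Flox control libraries (dark blue) in each row. Vegfa and the immediate early genes both have Celf1 AKO replicates 1 and 2 far to the right and Celf1 AKO replicate 3 left of Flox control replicate 1, while Pgf, Angpt2 and Fgf1 lie to the right in all 3 Celf1 AKO libraries, as the endothelial markers do.

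Vegfb (ENSMUSG00000024962; chromosome 19, 6982473 to 6987651, minus strand), whose product is linked to lipid uptake and vessel survival rather than sprouting, was close to level. It measured 96.3, 109 and 86.3 CPM in the Celf1 AKO libraries and 96.8, 105 and 85.9 CPM in the Flox control libraries, a log2 fold change of 0.02 (SE 0.13; edgeR adjusted p = 0.963). The small error makes this the most tightly measured ligand of the set, and its values in the groups interleaved.

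Vegfc (ENSMUSG00000031520; chromosome 8, 54077606 to 54187096, plus strand), the lymphatic growth factor, had the lowest mean FPKM, with 55 to 154 counts per library. It measured 2.60, 0.90 and 1.74 CPM in Celf1 AKO fat, against 1.35, 2.27 and 2.0 CPM in Flox control fat. The log2 fold change was -0.11 (SE 0.41; edgeR adjusted p = 0.938), and a difference of that size was not detectable here. The 4 lymphatic endothelial markers, Prox1, Lyve1, Pdpn and Mmrn1, had log2 fold changes of 0.92, -0.11, -0.26 and 0.16 (median 0.02). All 4 overlapped between groups and Prox1 had only 14 to 58 counts per library, so their median does not show that lymphatic vessels were level.

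Pgf (ENSMUSG00000004791; chromosome 12, 85166635 to 85177790, minus strand) was higher in every Celf1 AKO library. It stood at 11.3, 8.59 and 11.6 CPM there, against 7.15, 5.42 and 2.26 CPM in Flox control fat, and Flox control replicate 3 was the lowest. The log2 fold change of 1.09 (SE 0.39, 2.12-fold) did not pass (edgeR adjusted p = 0.331; DESeq2 adjusted p = 0.0945), and leaving out each library in turn it ran between 0.74 and 1.45.

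As a share of the summed FPKM of 5 VEGF ligand genes, the 4 above and Vegfd, another lymphatic growth factor gene, Vegfa made up 69.8%, 71.1% and 59.6% in Celf1 AKO replicates 1, 2 and 3, against 58.4%, 45.2% and 51.4% in Flox control. Vegfb made up 21.3% to 28.1% in Celf1 AKO fat and 30.3% to 41% in the controls. Vegfd made up 4.70% to 8.84% in Celf1 AKO fat and 9.13% to 12.3% in the controls, and averaged 20.5 ± 3.37 FPKM in Celf1 AKO fat, against 23.1 ± 1.62 FPKM in Flox control. The Vegfa share did not overlap, although Celf1 AKO replicate 3 exceeded Flox control replicate 1 only narrowly, and since shares sum to a whole, the lower shares of Vegfb and Vegfd are not separate differences.

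The angiopoietins differed in pattern. Angpt2 (ENSMUSG00000031465; chromosome 8, 18690263 to 18741562, minus strand), which endothelial cells release when vessels remodel, stood at 11.8, 9.79 and 9.59 CPM in Celf1 AKO fat, against 6.62, 7.5 and 4.01 CPM in Flox control fat. Every Celf1 AKO library lay above every control, and the log2 fold change of 0.78 (SE 0.26, 1.72-fold) did not pass (edgeR adjusted p = 0.304; DESeq2 adjusted p = 0.0705). Angpt1 (ENSMUSG00000022309; chromosome 15, 42424723 to 42676977, minus strand), made by perivascular and stromal cells, ranged widely within both groups, at 20.8, 14.1 and 3.61 CPM in Celf1 AKO fat, against 7.24, 17.3 and 12.2 CPM in Flox control fat. Its log2 fold change was 0.06 (SE 0.58; edgeR adjusted p = 0.975), and single libraries decided it, since it was 0.50 without Celf1 AKO replicate 3 and -0.44 without Celf1 AKO replicate 1. Part of the gene, 737 exonic bases, overlaps the antisense gene Gm17473, and the counting is not stated to use strand.

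The ratio of Angpt2 to Angpt1 in FPKM, often read as a measure of vessel destabilization, was 0.68, 0.831 and 3.17 in Celf1 AKO fat, against 1.09, 0.517 and 0.392 in Flox control. The high ratio of Celf1 AKO replicate 3 came with its low Angpt1, and the groups overlapped.

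Angptl2 (ENSMUSG00000004105; chromosome 2, 33216069 to 33247717, plus strand), an angiopoietin-like protein that fat secretes and that has been linked to inflammation of adipose tissue, was abundant in both groups. It stood at 188, 185 and 143 CPM in Celf1 AKO fat, against 179, 148 and 105 CPM in Flox control fat, with overlapping groups. The log2 fold change was 0.26 (SE 0.21; edgeR adjusted p = 0.632).

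Fgf1 (ENSMUSG00000036585; chromosome 18, 38838673 to 38929472, minus strand), a target of the fat cell regulator PPARγ that adipocytes need to remodel fat with its vessels, had the highest fitted fold change of the set with all libraries, at a distance from Pgf within their errors. It stood at 9.35, 14.3 and 11.2 CPM in Celf1 AKO fat, against 6.21, 5.39 and 2.74 CPM in Flox control fat, and the 3 Celf1 AKO libraries all exceeded the 3 controls. Fgf1 had a log2 fold change of 1.28 (SE 0.32, 2.43-fold), which edgeR did not call (adjusted p = 0.252, and 0.0972 without Celf1 AKO replicate 3), while DESeq2 did (adjusted p = 0.00807). Pgf was above it without Celf1 AKO replicate 2, with log2 fold changes of 1.21 for Pgf and 1.10 for Fgf1. Unlike Vegfa, Fgf1 was not lowest among the Celf1 AKO libraries in replicate 3.

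Fgf2 (ENSMUSG00000037225; chromosome 3, 37348346 to 37410108, plus strand), a mitogen of endothelial cells and preadipocytes, was scarce, with 74 to 148 counts per library. It stood at 2.69, 2.42 and 1.37 CPM in Celf1 AKO fat, against 1.70, 1.15 and 1.13 CPM in Flox control fat, and the value of Celf1 AKO replicate 3 lay below that of Flox control replicate 1. The log2 fold change was 0.70 (SE 0.34; edgeR adjusted p = 0.429). Its value is uncertain, because 640 of its exonic bases overlap Nudt6, a gene on the opposite strand at a mean of 6.42 CPM, and reads from the overlap cannot be told apart without strand.

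Hif1a (ENSMUSG00000021109, chromosome 12, 73901375 to 73947530, plus strand) differed little, and least in Celf1 AKO replicate 3. It stood at 109, 105 and 96.0 CPM in Celf1 AKO fat, against 93.7, 88.6 and 88.7 CPM in Flox control fat, a log2 fold change of 0.19 (SE 0.10, 1.14-fold; edgeR adjusted p = 0.459). The groups did not overlap, with Celf1 AKO replicate 3 just above Flox control replicate 1. The factor is regulated mainly through breakdown of its protein in the presence of oxygen, which counts of RNA do not show. Of its exonic bases, 330 overlap the antisense gene Gm15283.

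**Figure D3:**
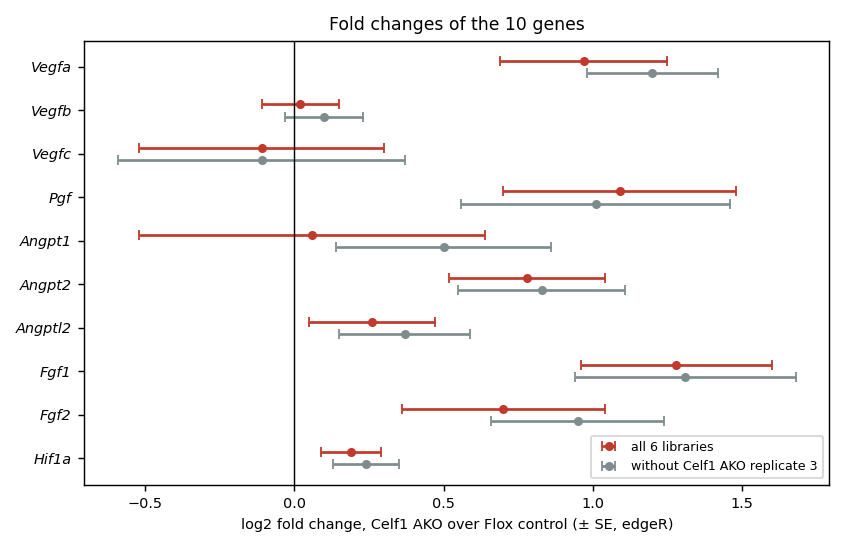
Log2 fold change of Celf1 AKO over Flox control with its SE (x axis, edgeR) for each of the 10 genes, in all 6 libraries (red) and without Celf1 AKO replicate 3 (grey). Fgf1, Pgf, Vegfa and Angpt2 lie between 0.78 and 1.28 with all libraries, Vegfb lies at 0.02, and Angpt1 moves to 0.50 without the 1 library.

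Per unit of transcript length the order of levels was set by Vegfa, at a mean of 163 FPKM over the 6 libraries, then Vegfb at 75.1, Angptl2 at 44.1, Hif1a at 20.4 and Pgf at 4.86 FPKM. The lowest library of Vegfa, Vegfb, Angptl2 and Hif1a still lay above the highest library of the next gene in that order. The others followed at 2.95 FPKM for Angpt1, 2.30 for Angpt2, 2.04 for Fgf1, 1.39 for Fgf2 and 0.971 for Vegfc, and from Pgf downwards each gene's range over libraries overlapped that of the next. Angpt1, Angpt2, Fgf1 and Fgf2 were thus far below Vegfa and Vegfb.

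**Figure D4:**
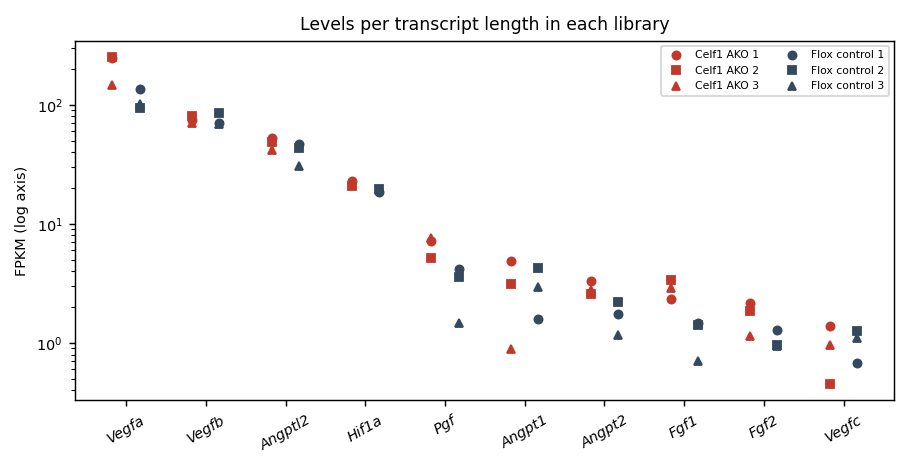
FPKM (y axis, log scale) of each of the 10 genes in each Celf1 AKO library (red, left) and Flox control library (dark blue, right), ordered by the mean over all 6. Vegfa lies between 94.2 and 252 FPKM, and Pgf, Angpt1, Angpt2, Fgf1, Fgf2 and Vegfc all lie under 8 FPKM.

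Of 14 genes of receptors of these ligands and their partners, 6 were higher in Celf1 AKO than in all controls. Another 8 overlapped and 0 were lower without overlap. Among the 14 is Ptprb, which encodes a phosphatase and not a receptor of these ligands. The median log2 fold change was 0.50, 0 were called by edgeR, and 3 were called by DESeq2 (Kdr, Flt4 and Fgfr3). Of all genes, 7.81% were higher and 9.51% lower without overlap, and DESeq2 called 2.17% higher. The 6 without overlap include Kdr, Flt1, Flt4, Tie1 and Ptprb, genes of endothelium, and 12 endothelial markers were all positive too (median 0.68). Receptor levels were not scaled to those markers, and the part of endothelial cells in them was not tested. Kdr, the main receptor of VEGF-A on endothelium, stood at 213, 247 and 200 CPM in Celf1 AKO fat, against 155, 145 and 115 CPM in Flox control fat (log2 fold change 0.67, SE 0.15; edgeR adjusted p = 0.238). Flt1, which binds VEGF-A, VEGF-B and placental growth factor, averaged 126 ± 21.1 CPM in Celf1 AKO fat, against 80.7 ± 18.3 CPM in Flox control fat. The VEGF-C receptor gene Flt4 averaged 13.8 ± 1.87 CPM in Celf1 AKO fat, against 7.18 ± 2.22 CPM in Flox control fat. Tek, the angiopoietin receptor gene, went the other way and overlapped, at 57.3 ± 13.9 CPM in Celf1 AKO fat, against 65.7 ± 10.6 CPM in Flox control fat (log2 fold change -0.20, SE 0.20).

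Among the fibroblast growth factor receptors, Fgfr3 stood at 19.3, 26.0 and 28.1 CPM in Celf1 AKO fat, against 12.9, 12.2 and 5.69 CPM in Flox control fat (log2 fold change 1.26, SE 0.31; edgeR adjusted p = 0.252). Fgfr1 resembled Vegfa in that Celf1 AKO replicates 1 and 2 were high, at 407 and 507 CPM, and replicate 3 was not, at 245 CPM, against 243 to 288 CPM in Flox control fat. Its edgeR adjusted p was 0.407, and 0.0430 without Celf1 AKO replicate 3.

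The summed endothelial markers did not overlap between groups, although single markers did. All 12 of them (Pecam1, Cdh5, Cldn5, Esam, Emcn, Egfl7, Erg, Sox17, Vwf, Eng, Plvap and Robo4) had positive log2 fold changes, with a median of 0.68, 6 of them without overlap, 0 called by edgeR and 4 by DESeq2. Of all genes, 7.81% were higher without overlap, and DESeq2 called 2.17% higher. The summed level of the 12 markers was 1068 to 1346 CPM in Celf1 AKO fat, against 556 to 941 CPM in Flox control fat. The 3 markers of smallest p, Robo4, Sox17 and Cldn5, had log2 fold changes of 1.10, 1.46 and 1.48. Set against this sum, Angpt2 stood at 11.1, 7.40 and 7.12 CPM per 1000 CPM of endothelial markers in Celf1 AKO fat, against 8.76, 7.97 and 7.21 in Flox control, and Pgf at 10.6, 6.5 and 8.58 in Celf1 AKO fat, against 9.46, 5.76 and 4.07 in Flox control, so that both overlapped. Fgf1 stood at 8.76, 10.8 and 8.30 in Celf1 AKO fat, against 8.21, 5.73 and 4.93 in Flox control on that scale, where the groups were parted only by 8.30 against 8.21.

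Of the other cell types checked, only the summed Schwann cell markers did not overlap between groups. The summed level of 7 pericyte and smooth muscle markers was 565 to 650 CPM in Celf1 AKO fat, against 401 to 648 CPM in Flox control fat. That of 6 preadipocyte and fibroblast markers was 3797 to 6475 CPM in Celf1 AKO fat, against 4386 to 5982 CPM in Flox control fat, and that of 6 macrophage markers 417 to 1242 CPM in Celf1 AKO fat, against 723 to 1100 CPM in Flox control fat. The 5 Schwann cell markers summed to 150 to 281 CPM in Celf1 AKO fat, against 76.8 to 100 CPM in Flox control fat. All 5 were higher without overlap, as were 7.81% of all genes. The 5 neutrophil markers summed to 15.4 to 111 CPM in Celf1 AKO, highest in replicate 3, and 3.41 to 16.7 CPM in Flox control fat. Of the 2 epithelial markers in the table, Epcam stood at 3.22, 0.0982 and 0.0922 CPM in Celf1 AKO fat, against 0.206, 0.546 and 0 CPM in Flox control fat. Cdh1 averaged 2.19 ± 0.553 CPM in Celf1 AKO fat, against 0.94 ± 0.471 CPM in Flox control fat, without overlap (edgeR adjusted p = 0.339). The part of any of these cells in the growth factor differences was not tested.

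The hypoxia pathway gave a mixed picture. Of its 9 regulators besides Hif1a, 5 had positive and 4 negative log2 fold changes (median 0.12), and 0 were called by edgeR or DESeq2. Epas1, the hypoxia factor typical of endothelium and fat, stood at 339, 450 and 499 CPM in Celf1 AKO fat, against 378, 449 and 332 CPM in Flox control fat, with overlapping groups. Arnt2, a partner of the hypoxia factors, averaged 1.41 ± 0.405 CPM in Celf1 AKO fat, against 0.564 ± 0.24 CPM in Flox control fat, with no overlap. Of 15 target genes of the hypoxia factors, 11 were positive and 4 negative (median 0.40), of which edgeR called 0 and DESeq2 1, Ndrg1 (adjusted p = 0.0297). DESeq2 called 2.17% of all genes higher. Without overlap, 1 of the 9 regulators and 2 of the 15 targets were higher, and 1 target was lower. The shares of all genes were 7.81% higher and 9.51% lower. Ndrg1 averaged 121 ± 29.1 CPM in Celf1 AKO fat, against 68.7 ± 14.7 CPM in Flox control fat, and the glucose transporter gene Slc2a1 31.9 ± 5.38 CPM in Celf1 AKO fat, against 18.4 ± 6.38 CPM in Flox control fat, both without overlap. The glycolytic gene Pgk1 lay the other way, at 248 ± 26.8 CPM in Celf1 AKO fat, against 358 ± 46.7 CPM in Flox control fat, also without overlap (log2 fold change -0.53, SE 0.15; edgeR adjusted p = 0.267).

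VEGF-A can also be induced without the hypoxia factors, by the coactivator encoded by Ppargc1a acting through the nuclear receptor encoded by Esrra. Ppargc1a stood at 186, 80.4 and 74.7 CPM in Celf1 AKO fat, against 79.3, 52.4 and 57.4 CPM in Flox control fat, which overlapped (log2 fold change 0.85, SE 0.36; edgeR adjusted p = 0.380). Esrra stood at 40.0, 38.0 and 53.1 CPM in Celf1 AKO fat, against 94.9, 80.0 and 93.0 CPM in Flox control fat, all 3 Celf1 AKO libraries below all controls (log2 fold change -1.03, SE 0.15; edgeR adjusted p = 0.215, and 0.0174 without Celf1 AKO replicate 3). For Ppargc1a, leaving out Celf1 AKO replicate 1 gave a log2 fold change of 0.34. The part of either gene in the Vegfa difference was not tested.

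Of 10 inhibitors of angiogenesis, 4 were higher than in all controls without overlap, 0 were called by edgeR, and 3 were called by DESeq2 (Timp3, Adamts1 and Sema3f). The median log2 fold change was 0.46, and values near 0 were among them, as for Serpinf1 (0.01). Of all genes, 7.81% were higher without overlap, and DESeq2 called 2.17% higher. Timp3, a protease inhibitor that blocks binding of VEGF-A to its receptor, stood at 370, 356 and 377 CPM in Celf1 AKO fat, against 242, 230 and 189 CPM in Flox control fat (log2 fold change 0.74, SE 0.13; edgeR adjusted p = 0.223, and 0.0494 without Celf1 AKO replicate 3). Adamts1, a protease that binds VEGF-A, stood at 361, 292 and 154 CPM in Celf1 AKO fat, against 131, 69.1 and 45.6 CPM in Flox control fat (log2 fold change 1.72, SE 0.44; edgeR adjusted p = 0.256). Sema3f, a repellent ligand of neuropilins, averaged 51.2 ± 12.3 CPM in Celf1 AKO fat, against 22.3 ± 9.69 CPM in Flox control fat (n = 3 libraries each, SD), again without overlap.

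Genes of vessel sprouting and Notch signalling were split, with 6 of 11 positive (median 0.01) and 0 called by edgeR or DESeq2. Without overlap, 2 of the 11 were higher and 1 lower, where 7.81% of all genes were higher and 9.51% lower. Notch1, which restrains sprouting, averaged 37.3 ± 4.02 CPM in Celf1 AKO fat, against 27.4 ± 4.54 CPM in Flox control fat, and the guidance receptor gene Unc5b 7.47 ± 0.288 CPM in Celf1 AKO fat, against 5.54 ± 0.929 CPM in Flox control fat, both without overlap. Cxcr4, a chemokine receptor gene of sprouting endothelium and of leukocytes, averaged 4.73 ± 1.31 CPM in Celf1 AKO fat, against 6.41 ± 0.496 CPM in Flox control fat, and was lower without overlap (log2 fold change -0.44, SE 0.25; edgeR adjusted p = 0.489). Aplnr, the apelin receptor gene of growing vessels, was at 1.27 ± 0.489 CPM in Celf1 AKO fat, against 2.93 ± 1.69 CPM in Flox control fat with overlapping groups (log2 fold change -1.20, SE 0.50; edgeR adjusted p = 0.377).

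**Figure D5:**
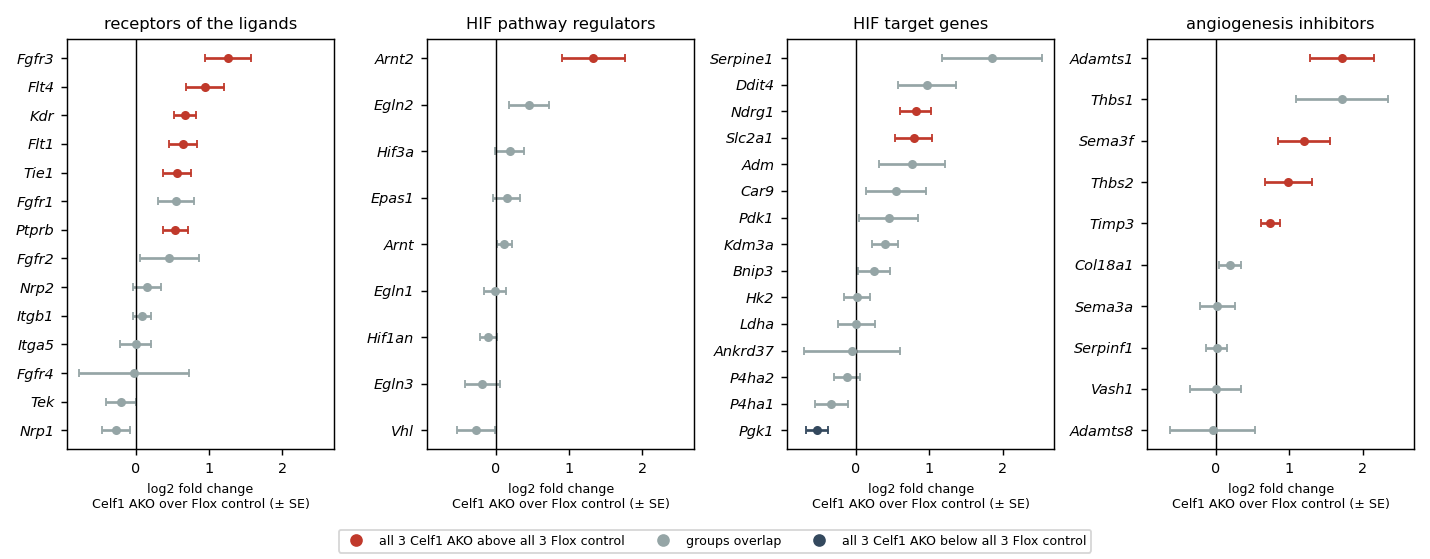
Log2 fold change of Celf1 AKO over Flox control with its SE (x axes, edgeR, all 6 libraries). Shown are 14 genes of receptors and their partners, 9 regulators and 15 targets of the hypoxia factors, and 10 inhibitors of angiogenesis. Red points have all 3 Celf1 AKO libraries above all 3 controls, dark blue points all 3 below, and grey points overlap, and Kdr, Flt1, Flt4 and Timp3 are among the red while Pgk1 is dark blue.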

How the data were processed

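For every library the authors deposited a raw count and an FPKM value (fragments per kilobase, scaled to depth) of each gene, unpooled. HISAT2, RSEM 1.3.1, GRCm38 and mm10 appear in the submitters' processing notes, without roles; the annotation and strand setting are not given in sources used here. Symbols and positions came from GENCODE M21 (16522 of 16627 identifiers matched), start regions from RefSeq. Counts were tested with edgeR 4.0.16 in R 4.3.3: quasi-likelihood test, TMM scaling, default filter (16366 genes kept), robust dispersions, genotype as the only term, all 6 libraries, p-values adjusted over all tested genes. SE is the log2 fold change over the root of F. The fits were also run on counts simulated with edgeR's fitted spread, without a library that stood apart. That run does not show how they behave on these data. Levels between genes use FPKM. No library pair agreed within sampling noise (chi-square per degree of freedom at least 48). Alternatives were RLE scaling, no filter, DESeq2 1.42.0 on the same genes, limma 3.58.1 on log2(FPKM + 1) and log2(FPKM + 0.1), a replicate block, and each library left out.

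The 10 members and all gene lists were chosen with earlier results of these data known. The naming rule took all members, Celf1, 8 fixed genes and up to 3 genes of smallest p per list, and the 3 genes most like Vegfa across libraries; Vegfd, Cxcr4 and Serpinf1 were added after their values were seen.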

Additional observations from a re-analysis of the deposited data

How the results depend on the processing

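Vegfc and Fgf2 rest on under 160 counts per library, but spread between libraries is wide at higher depth too, with an SE of 0.58 for Angpt1 against 0.41 for Vegfc. Of 120 log2 fold changes of members under the alternatives, 107 kept their sign and their side of the threshold, 3 passed it newly and 10 changed sign, all of these for Angpt1, Vegfb or Vegfc. DESeq2 called 497 genes and 2 members, against 2 genes and 0 members by edgeR; limma on log2(FPKM + 1) and on log2(FPKM + 0.1) called 0 genes each (1490 and 1483 at an unadjusted p under 0.05). With the replicate block, edgeR called 12 genes and 0 members, with Lep, Adamts1, Cldn5 and Celf1 among the genes (adjusted p = 0.0476 each). The labels do not say whether equal numbers pair samples. Deviations from the group means of same-numbered libraries correlated at 0.0709, -0.00842 and 0.273. These were the best matches of Celf1 AKO replicates 1 and 3, while Celf1 AKO replicate 2 correlated best with Flox control replicate 1 (0.299). Such deviations sum to 0 within each group, so they cannot settle whether the samples were paired. Angpt1 was at -0.08 and -0.17 in the 2 limma fits, where on log2(FPKM + 1) Pgf (0.95) and Vegfa (0.94) exceeded Fgf1 (0.84), and -0.18 with the replicate block. Leaving out 1 library, genes called ran from 0 to 527, members called from 0 to 1 and members without overlap from 4 to 7, the upper ends without Celf1 AKO replicate 3; log2 fold changes ran from -0.44 to 0.50 for Angpt1, -0.07 to 0.10 for Vegfb, -0.47 to 0.20 for Vegfc and -0.13 to 3.47 for Acta1. The cause of these changes was not tested. Without Celf1 AKO replicate 3, Vegfa, Angptl2 and Fgf2 joined the members without overlap. With fewer libraries in a group, ranges part more easily, and the share of all genes without overlap was not computed for those fits.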

Other observations

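Other angiogenic ligands of fat were split, with 7 of 14 positive (median log2 fold change -0.04) and 0 called by edgeR. Fgf21, a hormone that thermogenic fat secretes, stood at 2.60, 7.68 and 0.645 CPM in Celf1 AKO fat, against 1.17, 0.354 and 0.275 CPM in Flox control fat, where the groups overlapped through Celf1 AKO replicate 3 (log2 fold change 2.61, SE 0.92; edgeR adjusted p = 0.326, DESeq2 adjusted p = 0.0397). Single libraries decided its size, which was 1.44 when Celf1 AKO replicate 2 was left out and 3.52 when it was Flox control replicate 1. Lep, the leptin gene, whose product also acts on endothelium, stood at 41.1, 165 and 101 CPM in Celf1 AKO fat, against 142, 568 and 297 CPM in Flox control fat, with overlapping groups (log2 fold change -1.71, SE 0.60; edgeR adjusted p = 0.324). Fgf16 was at 0.50 ± 0.23 CPM in Celf1 AKO fat, against 1.04 ± 0.118 CPM in Flox control fat (n = 3 libraries each, SD). It was lower with no overlap, as was 1 of the 14 ligands in all and 9.51% of all genes.

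Of 8653 genes with a mean of at least 10 CPM, the 3 whose log2(CPM + 0.5) followed that of Vegfa most closely over the 6 libraries were Scamp1, a membrane trafficking gene (Pearson r 0.999, Spearman rho 1), 4931406P16Rik (0.998 and 1) and Ywhaz, a 14-3-3 protein gene (0.995 and 0.943). Over the 4 libraries other than Celf1 AKO replicates 1 and 2, which lay farthest from the median of Vegfa, Pearson's r was 0.998, 0.992 and 0.974. These are descriptions of 6 libraries that share their preparation, and the highest of many values. Scamp1 averaged 63.8 ± 8.19 CPM in Celf1 AKO fat, against 50.2 ± 4.70 CPM in Flox control fat, a smaller difference than that of Vegfa.

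CELF1 is known to bind GU-rich elements in 3′ untranslated regions and to promote decay of the mRNAs that hold them. The canonical GU-rich element of 11 letters, searched as an exact match and read on the transcript strand only, stood in the longest annotated 3′ untranslated region of 0 of the 10 members and of 4.13% of 13989 tested genes. For Fgf2, whose region is the longest of the set at 5311 bases, the share among genes with regions of like length was 13.7%. No match says only that these letters are not in these regions as annotated.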
